A study of Rattus norvegicus with 6 samples.

Results

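Genes of mitochondrial energy metabolism, of ribosomes and of the proximal tubule were frequent among the brightest array signals of normal rat kidney. The 300 probe sets of highest mean log2 signal on the 3 arrays of wild-type +/+ kidney were chosen by that signal alone, among the 20826 probe sets that the platform annotation gives to exactly 1 gene symbol. They were 1.44% of these probe sets and belonged to 284 genes, 2.00% of the 14217 genes measured in this way. A probe set is a group of short probes against a transcript, and its signal is a summary of their brightness on a linear scale. Because the signal chose the members, their levels are a description and no test was run on them. Signals of different probe sets also depend on how well each probe binds, so their order is an order of brightness and not of transcript number.

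The series held 6 arrays of kidney RNA from male Han:SPRD rats, a strain in which the Cy allele, a mutation of Anks6, gives cystic kidneys. Of the arrays, 3 came from heterozygous Cy/+ rats and were not used, and 3 came from +/+ rats without the mutant allele, for which the labels give no treatment. The labels give an age of 10 weeks, while the study's methods give a younger age for the array RNA. Neither source states that each sample is a separate rat, so the spread between arrays may be technical. The methods name total RNA of rat kidneys and do not say which part of the kidney was taken for the arrays. Such RNA mixes cell types, so many cells of a type and much RNA per cell cannot be told apart.

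The nephron filters plasma in the glomerulus and then recovers most of the filtrate in the proximal tubule, whose cells carry a dense brush border and many mitochondria and burn fatty acids, lactate and glutamine. The thick ascending limb takes up salt without water, and the distal tubule and the collecting duct set the final composition of the urine. The proximal tubule also makes glucose, creatine precursors and active vitamin D, and breaks down filtered proteins in its lysosomes.

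The mean signals of the members ran from 5613 for Rpsa, a ribosomal protein, to 32023 for COX2. On the log2 scale their means ran from 12.45 to 14.97 with a median of 12.93, against a median of 7.58 over all probe sets with a single symbol. The members held 17.2%, 17.4% and 17.3% of the summed signal of the 3 arrays over all 31042 probe sets that are not controls. The ranking has no gap at its end. Just inside it lay Rab29, Ccdc6, Slc7a7, Ccni and Rpsa with mean signals of 5613 to 5692, and just outside it lay Aif1l, Atp5f1d, RT1-Da, Ywhaz and Lamtor5 with 5594 to 5612.

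**Figure D1:**
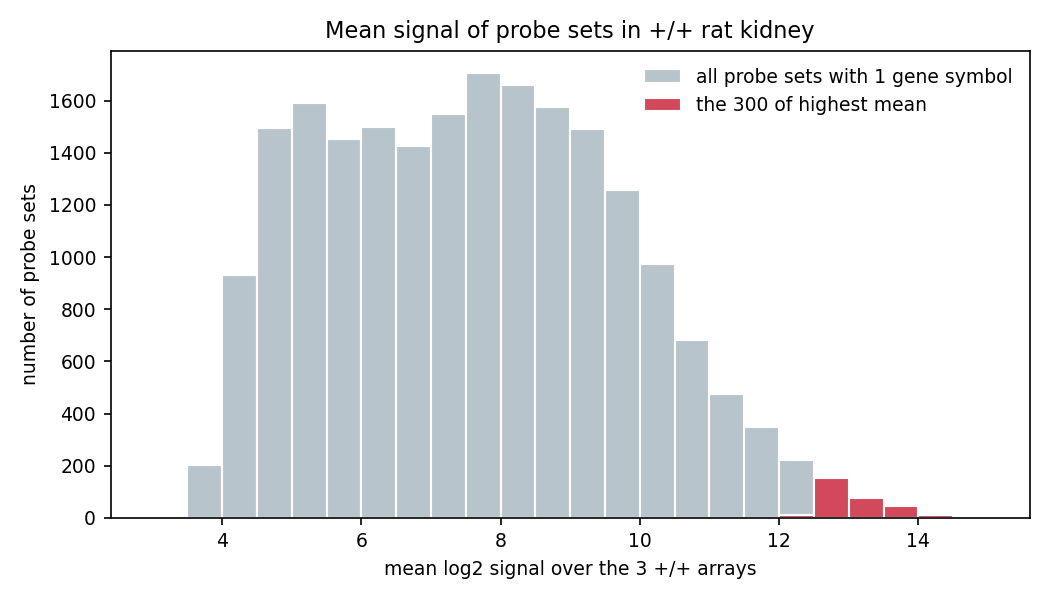
Number of probe sets (y axis) by mean log2 signal over the 3 +/+ arrays (x axis, bins of 0.5), for all 20826 probe sets with a single gene symbol (grey) and the 300 members (red, drawn over the grey bars). The members fill the upper end of a continuous distribution from 12.45 upward, and the last bin that holds other probe sets too has 223 probe sets of which 11 are members.

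Members of several nephron segments were present. The lists were made with earlier results of these data known, so the counts are a description and no check of the kidney label. Of the 98 measured genes on the lists of the proximal tubule, 38 (38.8%) had a member, beside 2.00% of all measured genes. Of 63 measured genes on the lists of the later segments and the medulla, 5 (7.94%) had one, and of 75 genes on the lists of podocytes, endothelium, stroma, immune cells, blood and liver, 3 (4.0%) had one. The median log2 signal, taking the brightest probe set of each gene, was 12.08 over the proximal tubule lists, 9.66 over the later segments and 8.56 over the other cells, against 8.04 over all measured genes. Liver products, markers of tissue that the samples should not contain, were mostly dim, with a median log2 signal of 5.55 over 13 genes. Albumin (Alb) had 51.8, 54.1 and 70.3 and Apoa1 26.1, 30.6 and 25.3 on arrays 1, 2 and 3. Of the 13, 1 lay above the median of all measured genes, Apoh with 360, 428 and 280, and Fga had 240, 341 and 202.

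**Figure D2:**
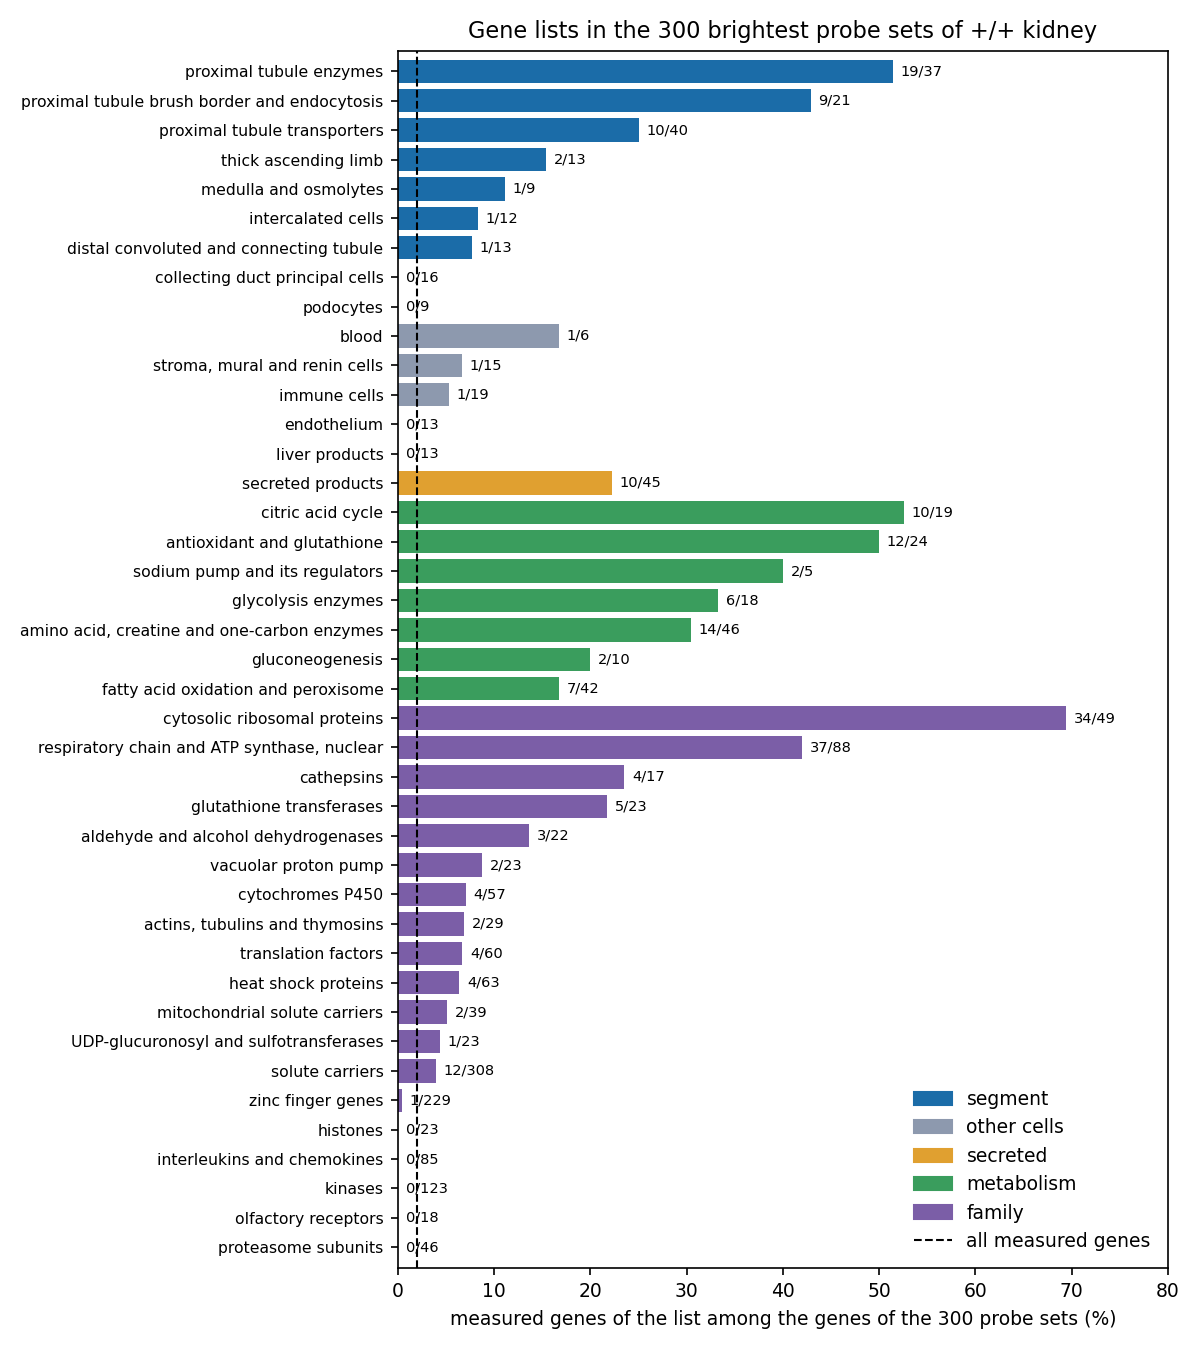
Share of the measured genes of each list that had a probe set among the 300 members (x axis, percent from 0), with the number of such genes over the number measured beside each bar and the kind of list as colour. The dashed line is the 2.00% of all measured genes, and the ribosomal proteins, the citric acid cycle, the proximal tubule enzymes and the antioxidant genes have the longest bars.

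Transporters of the proximal tubule supplied 10 of 40 measured genes (25.0%). Slc3a1, the heavy chain of the cystine and basic amino acid transporter of the brush border, had signals of 18130, 18770 and 17470 on arrays 1, 2 and 3. Slc34a1, the sodium phosphate cotransporter NaPi-IIa, had 17520, 16720 and 17200. Slc7a13, an amino acid transporter that pairs with the Slc3a1 protein in the late proximal tubule, had 14690, 17360 and 13930. The first and the second of these differed little between arrays, while Slc7a13 stood highest on array 2. Aqp1, the water channel of the proximal tubule and the thin descending limb, had 2 members, with 9594, 10310 and 9555 for one probe set and 7225, 8163 and 7599 for the other. Both probe sets of Aqp1 were highest on array 2.

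Organic ion transport was represented by Slc22a8, the organic anion transporter OAT3, at 9484, 7890 and 8782, and by Slc22a2, the organic cation transporter OCT2, at 6373, 7124 and 5564. These basolateral carriers bring drugs and metabolites from blood into the cell for secretion. Array 2 was the lowest for OAT3 and the highest for OCT2. The remaining members of the list lay between 4801 and 6426 on every array. They are Slc13a3, a sodium dicarboxylate carrier, Slc4a4, the sodium bicarbonate cotransporter that returns bicarbonate to blood, Slc7a7, the light chain of the exporter of basic amino acids, and Slc27a2, which activates and takes up fatty acids. Slc22a6, the organic anion transporter OAT1, was at rank 312 and not a member, with 6007, 5106 and 5485. The sodium glucose cotransporters were not members, with 2854, 2253 and 2435 for Slc5a2 (SGLT2) and 303, 307 and 269 for Slc5a1 (SGLT1).

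Brush border and endocytosis genes supplied 9 of 21 (42.9%). Dab2, the adaptor that links megalin to the clathrin coat, had 15530, 12980 and 14670, and Lrp2, megalin itself, the receptor that takes up filtered proteins, had 7868, 8325 and 7822. The third partner, cubilin (Cubn), was at rank 404 and not a member, with 5219, 4913 and 4214. Ggt1, the ectoenzyme that cleaves glutathione in the lumen, had 12170, 13480 and 11280. The peptidases of the brush border were Anpep (8322, 8777 and 7795), Mep1a, a meprin subunit (6384, 6919 and 5862), and Dpp4 (6362, 6504 and 5739). These 3 peptidases and Ggt1 had the same order of arrays, with array 2 highest and array 3 lowest. Cltrn (collectrin), which carries amino acid transporters to the surface, had 9737, 9882 and 9021, Folr1, a folate receptor, had 8018, 7687 and 7527, and Pdzk1ip1, a small membrane protein, had 5886, 6005 and 5364.

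**Figure D3:**
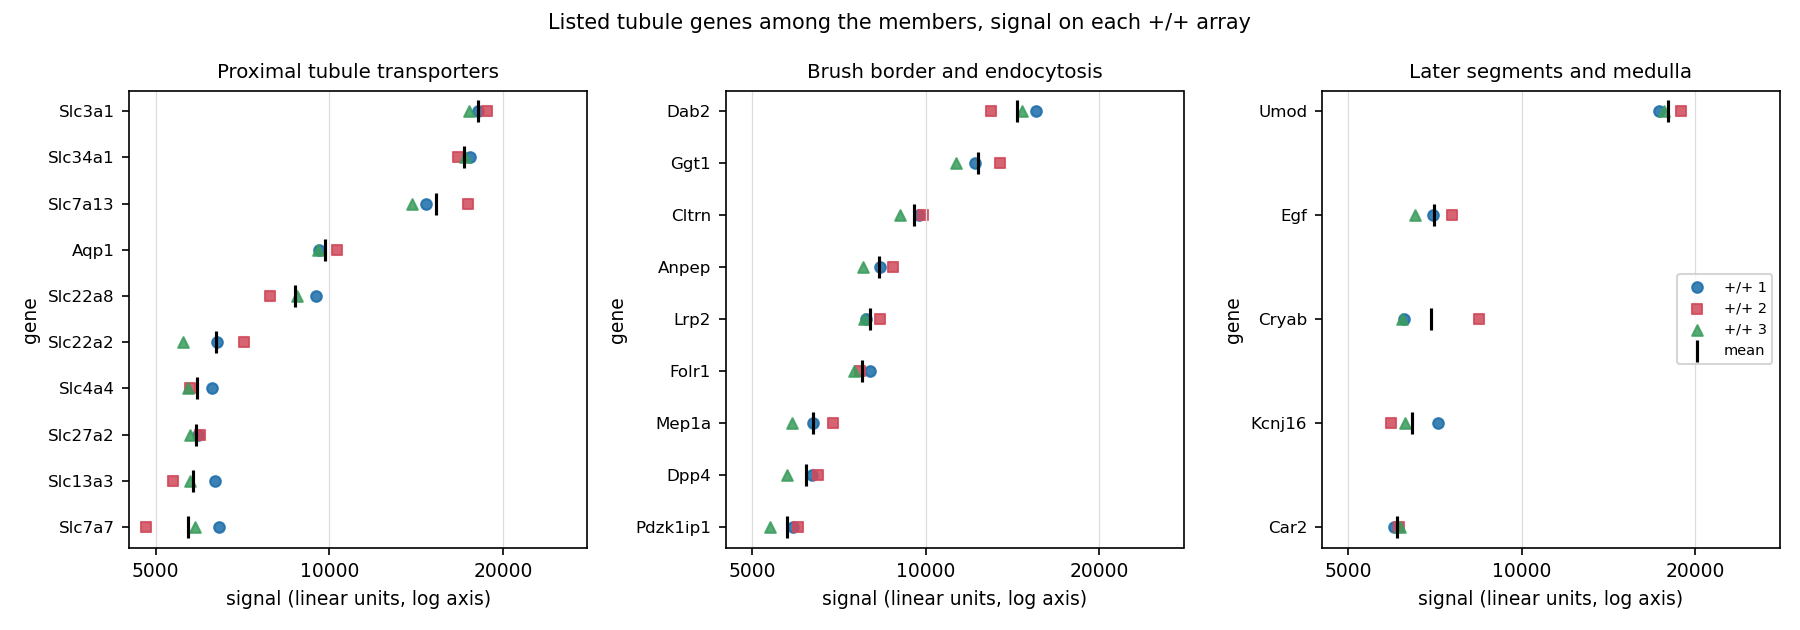
Signal (x axis, linear units on a log axis) of the listed tubule genes that are members, with a row per gene, a point per +/+ array and a bar at the mean, for proximal tubule transporters, for brush border and endocytosis, and for the later segments with the medulla. For genes with several members the brightest probe set is drawn. Slc3a1, Slc34a1 and Umod have arrays close together, while the array 2 points of Slc7a13, Cryab and Slc7a7 stand apart from the others.

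Enzymes listed for the proximal tubule supplied 19 of 37 (51.4%). Miox, which opens the ring of myo-inositol and is found mainly in this segment, had 21300, 20280 and 20630. Hao2, a peroxisomal oxidase of hydroxy acids, had 18480, 18040 and 18260. Fbp1, the fructose bisphosphatase of gluconeogenesis, had 18150, 16450 and 17150. The spread of these 3 enzymes over the arrays was small, with coefficients of variation (CV, the SD over the mean) of 2.50%, 1.2% and 4.95%. Pck1, which makes phosphoenolpyruvate for new glucose, had 11320, 11610 and 10990, and Akr1a1, which reduces the product of Miox, had 15540, 14920 and 15020.

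Enzymes of amino acid handling formed a further group. Ass1, with which the kidney makes arginine from citrulline, had 15490, 13700 and 13960. Gatm, the first enzyme of creatine synthesis, had 12120, 12440 and 11130. Acy1 and Acy3, which remove acyl groups from amino acids and mercapturates, had means of 13100 and 7810. Hpd of tyrosine breakdown (10690, 10240 and 10300), Dao, which oxidizes D-amino acids (8360, 8378 and 8239), and Agxt2, which clears methylated arginines (7872, 7379 and 7057), completed it. The other members of the list were Acsm2, which activates medium-chain acids (12680, 11690 and 12240), Fmo1, a flavin monooxygenase (9030, 8373 and 8169), the P450 enzymes Cyp2e1 (6601, 7195 and 6867) and Cyp4a8 (7402, 7958 and 6759), the protease napsin A (Napsa; 9502, 8889 and 9534) and Kap, given with the secreted products. Hnf4a, a transcription factor of proximal tubule and liver, had 7889, 7641 and 7608 and was among only 4 members of the class of transcription genes, with Tsc22d1, Zfp36l1 and Id2.

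The lists of the later segments and medulla supplied 5 of 63 genes (7.94%), fewer than the proximal tubule lists (38.8%) but above the 2.00% of all measured genes. Of the thick ascending limb, 2 of 13 genes (15.4%) were members. Umod, the uromodulin that the limb sheds into urine, had 17280, 18840 and 17610, and Egf, which is also made in the distal convoluted tubule, had 7019, 7562 and 6519. The salt carriers that define these segments lay below the members, Slc12a1 of the thick ascending limb at 2712, 3274 and 3400 and Slc12a3 of the distal convoluted tubule at 745, 673 and 882. Kcnj16, a potassium channel subunit of the distal list that the proximal tubule also has, had 7154, 5937 and 6263. Kcnj15, a related channel subunit, was a member too with 7163, 6321 and 6871, and both channel genes were highest on array 1. Car2, a carbonic anhydrase of intercalated and proximal tubule cells, had 5990, 6118 and 6137, and Cryab, a small heat shock protein abundant in the medulla, had 6249, 8412 and 6202. None of the 16 genes of collecting duct principal cells was a member, though at the 2.00% of all genes a list this short could also hold none. Aqp2, the vasopressin-regulated water channel of these cells, had 2651, 3274 and 3422.

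Cells outside the tubule were represented by single genes. None of 9 podocyte genes and none of 13 endothelial genes was a member. The share over all measured genes was 2.00%, at which lists this short could also hold none. Of the podocyte genes 6 lay above the median of all measured genes, among them Cd2ap, an adaptor of the slit diaphragm, with 2215, 2157 and 2159, while Nphs1 (nephrin), which forms that diaphragm, had 233, 187 and 191. The endothelial receptor Kdr had 1658, 1608 and 1659. Mgp, an inhibitor of calcification made by vessel walls and stroma, had 7630, 6720 and 7402 as the member among 15 stromal genes. Cd74, the chain that accompanies MHC class II molecules, had 7487, 7770 and 8358 as the member among 19 immune genes. Hbb, beta globin, had 7205, 9771 and 8895, and is the member of the blood list. The alpha globins Hba-a1 and Hba-a2 had only probe sets shared by several genes and were not ranked, and Hba-a3 lay below the members with 1820, 2572 and 2278.

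Secreted proteins were among the members, whose brightness follows from how they were chosen. On the list of secreted products, 10 of 45 measured genes (22.2%) had a member, beside 2.00% of all measured genes. Of the 45, 36 lay above the median of all measured genes, while others were near the floor, such as Epo with a mean of 27.2. After the values were seen 16 member genes were put in this class. Kap, the kidney androgen-regulated protein of the proximal tubule, had 24630, 25190 and 24750. Gpx3, the plasma glutathione peroxidase that the proximal tubule releases into blood, had 23290, 22320 and 22800. These and Umod stood among the 10 brightest members. Selenop, the carrier of selenium in plasma, had 15300, 15770 and 14890, and Tff3, a trefoil peptide of mucosal surfaces, had 12940, 16570 and 13480. Of the 16, Tff3 had the highest CV, 13.7%, and Plau, the urokinase of the tubule, the lowest, 0.538%, with 7920, 7922 and 7995.

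The other secreted members have roles in immunity, matrix and lipid transport. B2m, the small chain of MHC class I that is shed into plasma, had 14160, 13280 and 14070, and Igfbp7, which binds growth factors in the matrix, had 12370, 11900 and 12690. Both were lowest on array 2. Defb1, an antimicrobial defensin of the distal nephron, had 7257, 7127 and 7832. The apolipoproteins were Apoe (7688, 6528 and 7313) and Apom (6855, 6814 and 6380), and Timp3, an inhibitor of matrix proteases, had 6469, 6051 and 6761. Spp2, a phosphoprotein first known from bone, had a mean of 7485 and Serpinf1, an inhibitor of vessel growth, one of 5745. Osteopontin (Spp1), a secreted product that was not a member, had 2565, 3110 and 4210.

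**Figure D4:**
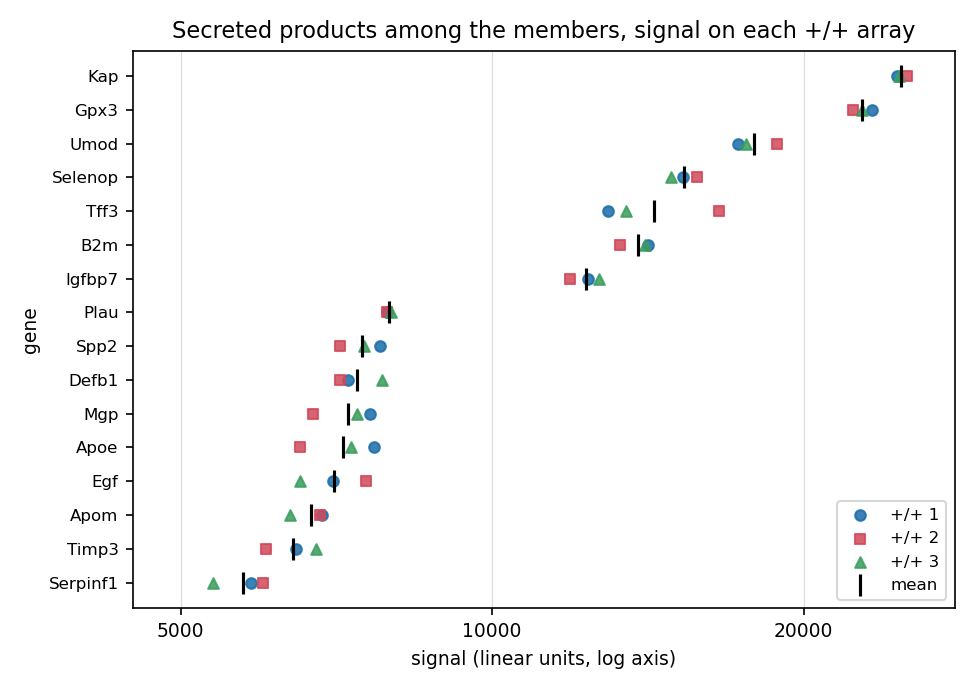
Signal (x axis, linear units on a log axis) of the 16 members classed as secreted products, with a row per gene, a point per +/+ array and a bar at the mean. Kap, Gpx3 and Umod are the brightest, Plau has nearly the same signal on all 3 arrays, and Tff3 is highest on array 2.

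The respiratory chain and ATP synthase were the largest class, with 39 genes and 14.2% of the members' summed signal. The brightest members of all were COX2 with 32240, 32140 and 31690 and COX1 with 28050, 28770 and 28050. In this annotation these are the catalytic subunits of cytochrome c oxidase encoded by mitochondrial DNA, not the cyclooxygenases, which it calls Ptgs1 and Ptgs2. Of 88 measured nuclear genes of the chain and of ATP synthase, 37 (42.0%) were members. By complex these were all 4 measured subunits of succinate dehydrogenase (complex II), 6 of 8 of complex III, 12 of 16 of ATP synthase, 9 of 18 of complex IV and 6 of 41 (14.6%) of complex I. Genes were assigned to complexes by the start of their symbols. The 41 of complex I, all Nduf symbols but Ndufa4, may therefore include genes that are not subunits, which limits the comparison of shares and medians. The median log2 signal was 13.15 over the ATP synthase genes and 11.99 over those of complex I, the highest and the lowest of the 5 complexes. Atp5f1b, the beta subunit of the synthase head, had 16420, 16210 and 16380, Cox4i1 had 14060, 14200 and 13980, and Cox8a had 13680, 14020 and 14510. The class had a median CV of 2.91%, and its Atp5f1a (11200, 11090 and 11110) had the lowest CV of all members, 0.526%.

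Citric acid cycle genes supplied 10 of 19 (52.6%). Besides the 4 succinate dehydrogenase genes (Sdha, Sdhb, Sdhc and Sdhd, with means of 6186 to 7757) these were Mdh1, the cytosolic malate dehydrogenase (12440, 12070 and 11980), Idh2 (7869, 8027 and 8813), Suclg2, Idh3g, Pdha1 of the pyruvate dehydrogenase that feeds the cycle, and Ogdh. All of the last 4 had means of 5802 to 6568. Fatty acid oxidation and ketone use were represented by 7 of 42 genes (16.7%), among them Acadm, the medium-chain acyl-CoA dehydrogenase (6664, 6683 and 6153), Cat, the catalase of peroxisomes (8790, 9894 and 8000), Acsm2, Acat1, Hsd17b10, Scp2 and Oxct1. The carriers of the inner membrane were Slc25a5, which exchanges ADP for ATP (13290, 13460 and 13560), and Slc25a3, which brings in phosphate (11190, 10770 and 11450). These were 2 of 39 mitochondrial solute carriers (5.13%).

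The sodium pump list supplied 2 of 5 genes. Atp1b1, the beta subunit of the pump that drives tubular transport, had 16180, 15900 and 15640 on its brighter probe set and 10540, 10720 and 10240 on the other member. Fxyd2, the gamma subunit, had 11690, 12290 and 12970.

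Glycolysis enzymes supplied 6 of 18 (33.3%) and gluconeogenesis 2 of 10, the latter being Pck1 and Fbp1. Eno1 had 14310, 12760 and 14340, Ldhb, the lactate dehydrogenase subunit of oxidative tissues, 10660, 9967 and 10760, and Aldoa 9839, 9329 and 10330. These 3 shared an order in which array 2 was lowest. Pgk1, Tpi1 and Pgam1 had means of 7365, 6506 and 6489. All 6 act in the steps that run in both directions, and no hexokinase or phosphofructokinase was a member. Gapdh and Pkm had only probe sets shared by several genes and were not ranked.

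Amino acid, creatine and one-carbon enzymes supplied 14 of 46 (30.4%), and 29 member genes were put in the class of amino acid and nitrogen metabolism. Aadat, which transaminates kynurenine and aminoadipate, had 14130, 15710 and 13140. Glul, the glutamine synthetase, had 3 members, of which the brightest had 10190, 10530 and 9319, and Glud1, the glutamate dehydrogenase that releases ammonium, had 6339, 6485 and 6008. Oat, which makes glutamate from ornithine, had 7764, 8580 and 6884. Aadat, Oat, Glud1 and all 3 members of Glul were highest on array 2 and lowest on array 3. Ddah1, which breaks down methylated arginines, had 11590, 10470 and 11180, Aldh6a1 of valine breakdown had 2 members with means of 11710 and 6391, and Hibadh of the same route had a mean of 7569. Psat1 of serine synthesis had 6455, 5614 and 5080.

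Antioxidant and glutathione genes supplied 12 of 24. Gclc, the catalytic subunit of the first enzyme of glutathione synthesis, had 16360, 17780 and 15810, its partner Gclm 6084, 7079 and 5130, and Gss, the second enzyme, 5563, 6616 and 4972. The whole synthesis route was therefore among the members, with the same order of arrays for each gene. Gpx1, the cytosolic glutathione peroxidase, had 16720, 15570 and 16300, Gpx4, which protects membrane lipids, had 7592, 8379 and 7895, and Sod1 had 12700, 13100 and 12090. Txn1 (thioredoxin) had a mean of 12023, and Mt2A, a metallothionein, had 7474, 5407 and 6039. Gpx3, Selenop, Cat and Ggt1 are the others of the list. Conjugation was represented by Sult1c2a, a sulfotransferase (15860, 16530 and 15490), and by 5 of 23 glutathione transferases (21.7%), with Gsta1 at 13190, 12530 and 11660. Of 57 cytochromes P450, 4 (7.02%) were members, among them Cyp2c23, the arachidonic acid epoxygenase of rat kidney, with 14850, 13880 and 14120.

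Lysosomal genes formed a class of 11, a compartment in which the proximal tubule digests what it takes up. The cathepsins Ctsl (13070, 12200 and 11820), Ctsb (13090, 11480 and 12150), Ctsh (10920, 10320 and 10050) and Ctsa (10560, 9348 and 10230) were 4 of 17 genes (23.5%). Lgmn (legumain), Napsa, Lamp1, Lamp2, Cd63, Cd164 and Laptm4a made up the rest. Of the vacuolar proton pump, which acidifies lysosomes and, in intercalated cells, urine, Atp6v0c and Atp6v0d1 were 2 of 23 (8.70%).

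Cytosolic ribosomal proteins were the list with the largest share, 34 of 49 measured genes (69.4%). Rps29 had 19550, 20480 and 19920 and was the brightest of them. Eef1a1, which delivers transfer RNA to the ribosome, had 18020, 18620 and 17110, but translation factors as a list supplied 4 of 60 (6.67%). Actg1, a cytoplasmic actin, had 16880, 16540 and 16720. Several other family lists had no member. None of 46 proteasome subunits, 123 listed kinases, 23 histones, 85 interleukins and chemokines or 18 olfactory receptors was a member. At the 2.00% of all measured genes, the lists of 46, 23, 85 and 18 genes could also hold none. Kinases of metabolites such as the member genes Pgk1 and Adk were not on the kinase list. Of 229 zinc finger genes 1 (0.437%) was a member, and of 308 solute carriers 12 (3.90%) were, below and above the 2.00% of all measured genes. Of further families, 4 of 63 listed heat shock proteins (6.35%), 2 of 29 actins, tubulins and thymosins (6.90%), 3 of 22 aldehyde and alcohol dehydrogenases (13.6%) and 1 of 23 UDP-glucuronosyl and sulfotransferases (4.35%) had a member. The heat shock list does not hold the member gene Cryab. The proteasome subunits were still bright as a group, with a median log2 signal of 10.50, whereas that of the olfactory receptors was 4.84.

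Of the 284 genes, 279 were matched to gene models of the rat assembly GRCr8 with a length. Their median span was 13892 bases, against 22338 over 14161 matched genes. The ribosomal members had a median span of 3582.5 bases, those of the respiratory chain and ATP synthase 6931 and those of membrane transport 33538, so the transport genes were long and the other groups short.

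Promoter sequences from RefSeq, on assembly GRCr8, were found for 251 of the 284 genes. They run from 250 bases before to 50 bases after the annotated start. The stretches shown carry letter patterns that were more frequent in a class than over all promoters, from 80 bases before to 20 bases after the start, and capitals mark the match: TATAAA for a transporter and an enzyme of the proximal tubule, and CTTTC at the start for ribosomal proteins. The first lies on chr17:9238964-9239063 (minus strand), the second on chr7:122284580-122284679 (plus), the third on chr10:83518984-83519083 (plus) and the last on chr14:1995206-1995305 (minus), all written in the direction of the gene.
Slc34a1: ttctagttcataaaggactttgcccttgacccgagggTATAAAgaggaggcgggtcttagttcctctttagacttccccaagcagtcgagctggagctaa
Miox: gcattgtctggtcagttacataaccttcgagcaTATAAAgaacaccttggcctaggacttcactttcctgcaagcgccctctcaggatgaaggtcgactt
Rpl19: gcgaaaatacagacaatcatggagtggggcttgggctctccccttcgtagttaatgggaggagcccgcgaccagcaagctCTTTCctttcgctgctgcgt
Rpl5: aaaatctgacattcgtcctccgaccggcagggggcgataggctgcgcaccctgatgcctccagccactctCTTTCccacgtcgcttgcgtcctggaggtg

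The pattern CTTTC on the gene's strand, from 10 bases before to 20 after the start, stood in 11 of 28 ribosomal promoters (39.3%), in 5.98% of all member promoters and in 2.93% of the 11700 promoters of all measured genes. Transcripts of ribosomal proteins are known to begin with a run of pyrimidines. TATAAA between 50 and 10 bases before the start, on the gene's strand, stood in 4 of 35 promoters of listed proximal tubule members (11.4%), in 5.18% of member promoters and in 2.56% of all. It also stood in 2 of 28 ribosomal promoters and 1 of 14 of the secreted class (7.14% each). GTTAAT, part of the site of the kidney and liver factor HNF1, on either strand of the whole stretch, stood in 8 of the 35 (22.9%), those of Kap, Miox, Slc34a1, Pck1, Hpd, Cltrn, Slc22a8 and Anpep, against 4.85% of all promoters. None of the 32 promoters of the respiratory chain and ATP synthase held any of these 3 patterns. GGGCGG on either strand stood in 59.8% of member promoters and in 57.5% of all, but in 22.9% of those of the proximal tubule members. Patterns of this length also occur without function, and a match or its absence says nothing on binding.

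Arrays of the same genotype were close to each other. Each pair of +/+ arrays had a Pearson correlation of 0.997 when all probe sets that are not controls were compared on the log2 scale, as a description across probe sets, which are not independent. Within the narrow range of the members they were 0.972 for arrays 1 and 2, 0.984 for 1 and 3 and 0.970 for 2 and 3. The median CV of the members was 4.11%, from 0.526% to 21.6%, against 6.07% over all probe sets with a single symbol, and 281 of 300 had a CV under 10%. The class medians lay between 2.79% for cytoskeleton, adhesion, traffic and signalling and 6.01% for amino acid and nitrogen metabolism.

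Of the 30 members with the largest spread between arrays, 8 were in the class of detoxification and redox, 8 in that of amino acid and nitrogen metabolism and 6 in that of membrane transport and acid-base, and the other classes had at most 2. Slc7a12, an amino acid transporter related to Slc7a13, had 5875, 8324 and 5791 and the highest CV of the members, 21.6%. It was followed by Cryab (18.2%), Mt2A (16.8%), Gclm (16.0%), Odc1 of polyamine synthesis (15.6%, with 5678, 7164 and 5407) and Hbb (15.1%). Of these 30 members, 22 were highest on array 2, 8 on array 1 and none on array 3. Over all 300 members, 51.7% were highest on array 2, 34.0% on array 1 and 14.3% on array 3, while over all probe sets with a single symbol the shares were 32.1%, 36.8% and 31.1%. The 700 probe sets next in brightness had 40.9%, 44.1% and 15.0%, so the share of array 3 was low there too.

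Gene lists differed in the array on which their genes were highest. Of 98 proximal tubule genes, 47 were highest on array 1, 47 on array 2 and 4 on array 3. Of 46 amino acid enzymes 1, and of 21 brush border genes none, was highest on array 3. The order was the other way for 12 of 16 collecting duct genes, 6 of 9 medullary genes, 10 of 13 endothelial genes and 16 of 19 immune genes, which were highest on array 3. Over all 14217 measured genes, 4526 were highest on array 3. The thick ascending limb had 7 of 13 genes highest there and the intercalated cells 6 of 12. Other lists outside the proximal tubule differed. Of the distal convoluted and connecting tubule 9 of 13 genes, and of podocytes 6 of 9, were highest on array 1. Of 15 stromal genes, 8 were highest on array 3 and 7 on array 1. None of the collecting duct and medullary genes was highest on array 1. The median deviation of a list from its genes' own means on array 3 was -0.10 (log2) for the brush border and 0.15 for the medulla. The blood list, of 6 genes, had -0.23 on array 1, 0.21 on array 2 and 0.03 on array 3. Slc14a2, the urea transporter of the inner medulla, which is not a member, had 81.0, 78.9 and 359 and the largest CV of all probe sets with a single symbol, 93.2%, and Aqp4, a water channel of the collecting duct, had 99.6, 168 and 266. Among the ribosomal genes 40 of 49 were highest on array 2. The part of medullary, vascular and immune RNA in the order of the members was not tested.

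**Figure D5:**
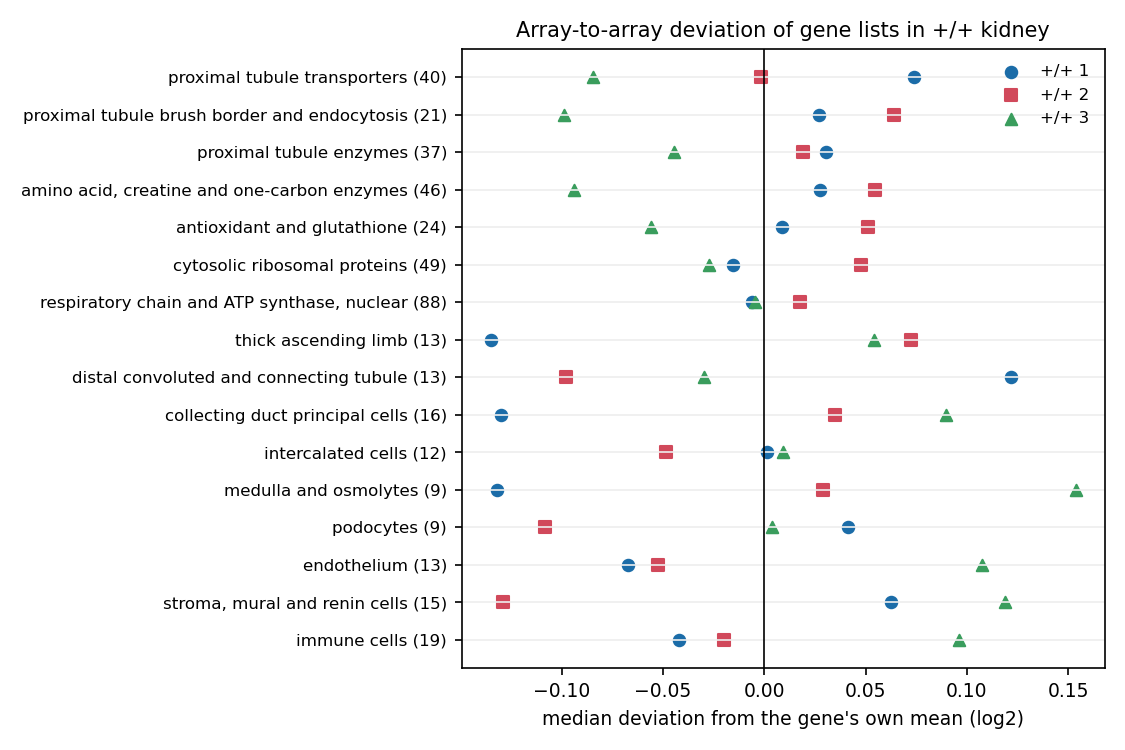
Median deviation of each gene list on each +/+ array from the genes' own means over the 3 arrays (x axis, log2), with a row per list, the number of measured genes in parentheses and a point per array. Array 3 lies lowest for the 3 proximal tubule lists and highest for the collecting duct, the medulla, the endothelium and the immune cells.

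Other probe sets of the member genes often had another signal. Of the 284 genes, 210 had a single probe set with 1 symbol, and 74 had several. Among the latter, 64 genes had 88 probe sets outside the members, with a median rank of 1843.5 among 20826. The brightest probe set of a gene was 3.20-fold above the dimmest in the median of the 74, and for 13 genes it was more than 100-fold above. Idh1, a source of NADPH in the cytosol, had a member at a mean of 10158 and another probe set at 19.6, and Apoe had 7176 and 28.6. Among genes described above by their member, Actg1 had 16713 and 79.2, Selenop 15320 and 151, and Gatm 11897 and 140. Slc22a8 had 8719 and 608, and Slc34a1 17147 and 2204. For 10 genes every probe set was a member.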

How the data were processed

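RNA of rat kidney was labeled with biotin and hybridized to rat genome oligonucleotide arrays, 1 per sample. The images were read by the authors in GCOS, and MAS5 is named in the submitters' processing notes. The deposited values are linear signal intensities, 1 per probe set, without detection calls. On the +/+ arrays they ran from 10.65 to 32240, and the number of arrays limits their precision. The scaling between arrays is not given in the sources used here.

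Of 31099 probe sets, 57 control probe sets were left out. Of the rest, 436 had several gene symbols in the platform annotation and 9780 had none, and these were not used. Values were taken to log2 with no pseudocount, averaged over the 3 +/+ arrays and ranked. The 300 highest were the members. Listed genes were counted through their symbols on 42 lists, and 1 list, of mitochondrially encoded genes, matched no symbol. The members and lists were chosen with earlier results of these data known, and the 16 classes were assigned after the members were seen. No comparison between genotypes and no test was made. Named are the 30 brightest genes, every member of a segment, cell type, secreted or metabolism list, and the 5 probe sets on each side of the last rank. Other genes were named after their values were seen. Rat symbols matched those of the assembly GRCr8 for 280 of the 284 member genes. Promoters are those of the RefSeq start listed first for each gene. The ranking was tested on simulated data. Alternatives changed the average, scaling, probe sets, symbols or number of members, or left out an array. Python 3.11.15, numpy 2.4.6, pandas 2.3.3 and matplotlib 3.10.9 were used.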

Additional observations from a re-analysis of the deposited data

How the results depend on the processing

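With another average, other scaling or updated symbols, 291 to 300 of the 300 members were shared. Leaving out an array left 293 to 295, omitting the ambiguous probe sets (names ending in s or x, whose probes match more than 1 transcript) 292, and taking 1 probe set per gene 284. The share of summed signal, 17.3% as a mean, was 17.1% without the ambiguous probe sets and 17.0% with 1 probe set per gene, each a move larger than the spread of 0.0727 between arrays. With the 150 brightest probe sets the members were 150, their genes 145, their share of the signal 10.97%, the listed proximal tubule genes 24 and the other probe sets of member genes 43. With the 600 brightest the genes were 562, the share 25.9% and the other probe sets 204. The counts of the 41 lists moved by over 1.5 times in at most 2 lists under the other alternatives, those of immune cells, which rose from 1 to 2 without array 1 or array 2, by the lowest array, without the ambiguous probe sets and with 1 probe set per gene, and of blood, which fell from 1 to 0 without the ambiguous probe sets. Among the 150 or the 600 brightest, 19 lists moved. No paired analysis was possible because the result comes from no test and uses 1 group. Of the probe sets at or above the last member, 394 in all, 57 had several symbols and 37 had none, so these were not ranked. With 3 arrays a single outlying array could not be tested.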

Other observations

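The symbol Myh1, that of a myosin heavy chain of fast skeletal muscle, had 4 members, with mean signals of 6879 to 7958 and CVs of 3.48% to 6.52%. The fifth probe set given to this gene had 234, 218 and 205 on arrays 1, 2 and 3. Other genes of skeletal muscle, chosen after Myh1 was seen, were dim. Myh2 had a mean of 17.2, Myh4 14.8, Acta1 25.5, Ckm 29.8, Actn3 29.0, Mb 21.5 and Tnni2 163. The myosin Myh9 of non-muscle cells had 2262, 1969 and 2246. The 4 bright probe sets rest on 2 expressed sequence tags, and whether these belong to Myh1 was not tested.

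Igf1, a growth factor on the list of secreted products that was not a member, had 428, 469 and 960, so that array 3 stood above the others as for Slc14a2.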
